A study of Caenorhabditis elegans with 2 samples.

Results

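The regions described here are candidate ChIP-seq peaks of FAX-1 in late Caenorhabditis elegans embryos, at protein-coding promoters that point in a single direction. The candidate list of the pooled replicates held 12691 nuclear regions after overlapping rows were merged. A region was a member when its summit lay within 500 bp of an annotated protein-coding 5′ end and no such 5′ end had an oppositely pointing protein-coding 5′ end within 1000 bp upstream. Summits within 500 bp of a tRNA, snoRNA or snRNA gene were left out. The rule gave 2623 members, 20.7% of the nuclear regions, at 2586 of 19973 nuclear protein-coding genes. Of these, 208 overlapped the authors' final list, which was filtered for reproducibility between replicates, and are called final members. The other 2415 are called weaker members. More than a single protein-coding start lay within 500 bp of the summit in 7 final and 45 weaker members, and the nearest was used. With summits within 250 bp of the start, the number of final members would be 124.

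The group held 2 biological replicates of whole hermaphrodite embryos of strain OP164, 4 h after synchronization by egg bleaching. These worms stably carry FAX-1 with a GFP-FLAG tag at its C-terminus, and chromatin was precipitated with an antibody against GFP. Neither the sequences that drive the transgene nor the cells that make it are named in the labels, and chromatin of all cell types was mixed. No untagged strain, other stage or other factor was compared.

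FAX-1 is a nuclear receptor of the family that includes the photoreceptor-specific receptor PNR of vertebrates, and in worms it acts in the identity and axon paths of certain interneurons. Nuclear receptors bind short half-sites in DNA, of which AAGTCA is one known for this subfamily. Many worm genes are trans-spliced, so that a spliced leader replaces the first stretch of the transcript. The annotated 5′ end can then lie downstream of where transcription starts. Divergent promoters drive a pair of genes from the space between their starts, and a peak there cannot be given to either gene. A promoter that points in a single direction gives each summit a defined upstream and downstream side.

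Some short sequences were more frequent at final than at weaker summits. Sequences shown first were picked for the difference between final and weaker members. All 10-base sequences were counted on both strands in windows of 151 bp centred on the summits. That search was made after the data were seen, so the counts that chose a sequence are a description. The 3 described here are the first and second of the ranked list and the listed one with the fewest weaker members. Together they occurred in 33 final members (15.9%) and 26 weaker members (1.08%), and no final member held an exact copy of more than 1 of them. Near copies were not counted. Other listed sequences, such as GGCCTAGAAA and GAGGAGTACA, are shifts of the first and of the second. Each set is shown at its 4 members of highest signal on chromosomes II, III, IV, V and X, with the 10 bases in capitals. Sequences are from the RefSeq assembly of WBcel235 (ce11), 5′ to 3′ on the strand of the gene.

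The first was TGGCCTAGAA, with the reverse complement TTCTAGGCCA. It is shown at pfd-5, a subunit of the prefoldin chaperone, sluh-7 and mog-3, both homologs of splicing factors, and mys-1, a histone acetyltransferase.
pfd-5 (chrIII:7199001-7199041, minus strand): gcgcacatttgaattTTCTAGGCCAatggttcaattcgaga
sluh-7 (chrV:10356120-10356160, minus strand): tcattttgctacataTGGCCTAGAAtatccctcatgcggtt
mog-3 (chrIII:5308410-5308450, plus strand): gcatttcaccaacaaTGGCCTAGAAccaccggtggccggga
mys-1 (chrV:7084898-7084938, minus strand): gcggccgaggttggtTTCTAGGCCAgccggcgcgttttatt

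The second was AGGAGTACAC, with the reverse complement GTGTACTCCT. Among its members is npp-8, a nuclear pore protein. Of the 4 shown, Y56A3A.7 is the one whose summit lay downstream of the gene start.
npp-8 (chrIV:1596005-1596045, minus strand): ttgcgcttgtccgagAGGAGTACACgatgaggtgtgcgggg
Y73B6BL.29 (chrIV:6321904-6321944, plus strand): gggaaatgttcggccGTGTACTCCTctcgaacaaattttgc
Y38C1AA.12 (chrIV:192239-192279, plus strand): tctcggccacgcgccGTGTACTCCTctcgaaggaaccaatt
Y56A3A.7 (chrIII:11946548-11946588, minus strand): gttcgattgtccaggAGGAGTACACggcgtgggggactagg

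The one with the fewest weaker members was GAGACACCAC, with the reverse complement GTGGTGTCTC. Its members include btf-1, the homolog of a factor that removes the TATA-binding protein from DNA, and nrde-4, a factor of nuclear RNA interference.
btf-1 (chrII:13200056-13200096, plus strand): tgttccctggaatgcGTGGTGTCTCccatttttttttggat
T14B4.3 (chrII:6734842-6734882, plus strand): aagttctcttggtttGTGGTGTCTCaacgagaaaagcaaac
W08E12.7 (chrIV:3294705-3294745, plus strand): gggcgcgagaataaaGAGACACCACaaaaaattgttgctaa
nrde-4 (chrIV:7654566-7654606, minus strand): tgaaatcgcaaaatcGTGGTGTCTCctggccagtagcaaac

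TGGCCTAGAA occurred in 14 of 208 final members (6.73%, 95% Wilson interval 4.05 to 10.98%), against 16 of 2415 weaker members (0.663%, 0.408 to 1.07%). Intervals here and elsewhere cover counting error only. AGGAGTACAC was in 11 final members (5.29%, 2.98 to 9.22%) and 9 weaker ones (0.373%). GAGACACCAC was in 8 final members (3.85%, 1.962 to 7.40%) and 1 weaker member (0.0414%).

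Position around the summit was not used in the search beyond the window itself. In final members the centre of TGGCCTAGAA lay a median of 19.5 bp from the summit and at most 42 bp from it. In the 16 weaker members with it the median was much the same, 21.5 bp, and the largest distance 65 bp. For final members the medians were 15 bp for AGGAGTACAC and 24 bp for GAGACACCAC, and both stayed within 40 bp. None of the 3 was found in the 416 windows centred 500 bp upstream or downstream of the final summits, which allows a share of up to 0.721%. Limits beside a count of 0 are 3 counts of the total and not Wilson bounds. In windows placed 188 bp upstream of all gene starts, the median place of the final summits, the shares were 0.376%, 0.210% and 0.0300%.

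Divergent promoters did not enter the search. TGGCCTAGAA was in 12 of 154 final divergent regions (7.79%, 4.51 to 13.1%) and 10 of 589 weaker ones (1.70%, 0.925 to 3.10%). AGGAGTACAC was in 14 final divergent regions (9.09%, 5.49 to 14.7%) and 3 weaker ones (0.509%, 0.173 to 1.49%). For both, the intervals of final and weaker divergent regions did not overlap. GAGACACCAC was in 2 final divergent regions (1.30%, 0.357 to 4.61%) and 0 of 589 weaker ones, which allows up to 0.509%. The regions of divergent promoters come from the same libraries as the members.

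Over all members, 8.01% overlapped the 830 strongest peaks of replicate 1 and 7.13% those of replicate 2. Of the 30 members with TGGCCTAGAA, 16 did so in replicate 1 (53.3%) and 11 in replicate 2 (36.7%). For AGGAGTACAC the numbers were 11 (55%) and 8 (40%) of 20 members. For GAGACACCAC they were 8 and 8 of 9 members (88.9%). Of the 208 final members, 193 were among the strongest peaks of replicate 1 and 152 among those of replicate 2. The sequences were picked for their excess in final members, so these shares are a description and no independent check by replicate. The strongest shown members had pooled signals of 192.8 (pfd-5), 241.5 (npp-8) and 265.8 (btf-1). Their signals in replicates 1 and 2 were 135.9 and 56.2 at pfd-5, 164.0 and 79.3 at npp-8, and 180.3 and 88.8 at btf-1.

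Final members had higher signal than weaker ones because the final list is the strongest part of the pooled list, so signal is given as a description. The signal is the authors' value for each peak, in units that the sources used here do not name. It ran over 98.3, 136.6 and 523.5 in final members (lowest, median, highest) and over 31.6, 41.5 and 97.98 in weaker ones. In replicate 1 the final members had 40.7, 89.9 and 380.8, and in replicate 2 they had 18.6, 46.6 and 190.4. The lowest value in the deposited list was 20.95 for replicate 1 and 12.7 for replicate 2, so the replicates were compared by rank.

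**Figure D1:**
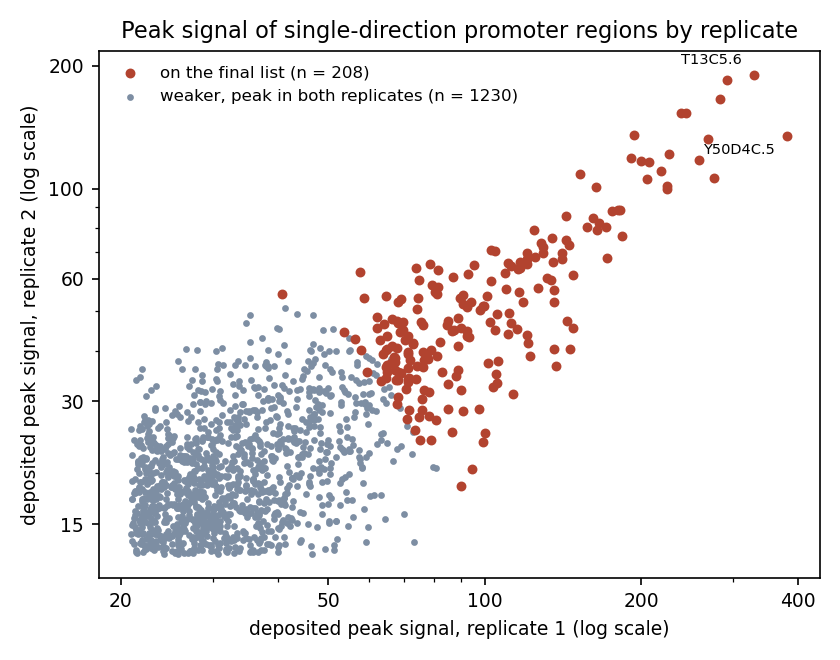
Deposited peak signal of single-direction promoter regions in replicate 1 (x axis) and replicate 2 (y axis), both on log scales and in the authors' units. Each point is a region with a peak in both replicates: 208 final members and 1230 weaker members. The final members fill the upper right, with T13C5.6 at 329.6 and 190.4 and Y50D4C.5 at 380.8 and 134.8.

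Among all nuclear candidate regions, 6.17% were on the final list. Of the members, 7.93% were (208 of 2623, interval 6.96 to 9.03%). At divergent promoters the share was 20.7% (154 of 743, 17.97 to 23.8%), so the intervals did not overlap. Over 500 bp from any protein-coding start it was 2.39% (211 of 8837). Within 500 bp of a tRNA, snoRNA or snRNA gene it was 43.0% (210 of 488). Final members made up 26.6% of all 783 nuclear final regions.

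The regions on either side of the rule's limits are given as a description. Members whose summit lay over 400 to 500 bp from the start were on the final list in 20 of 390 cases (5.13%). Just outside, over 500 to 600 bp away, 16 of 420 regions were (3.81%). Where the opposed start lay over 1000 to 1500 bp upstream, 23 of 178 members were final (12.9%). With the opposed start over 500 to 1000 bp upstream, and so outside, 69 of 347 regions were (19.9%).

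Agreement between the replicates was partial. Every final member overlapped a candidate peak in both replicates, and 1230 of the 2415 weaker members did. Of all nuclear candidate regions, 4.46% overlapped a peak among the 830 strongest of each replicate, 830 being the number of rows on the final list. For final members this was 140 of 208 (67.3%, 60.7 to 73.3%), with 53 more in replicate 1 only, 12 in replicate 2 only and 3 in neither. With 0.5 times as many strongest peaks of each replicate, the share was 32.2%. Of the weaker members, 1 did so. Since the final list was drawn from both replicates, these counts are no independent check. Across all members with a peak in both replicates, the Spearman correlation of signal between replicates was 0.568. These regions share the same 2 libraries and were all on the pooled list.

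The strongest member lay upstream of T13C5.6, which RefSeq describes as a phosphatidic acid phosphatase domain protein. Its signal was 523.5 in the pooled list, 329.6 in replicate 1 and 190.4 in replicate 2, and its summit lay 165 bp upstream of the gene start. Y50D4C.5 followed with 506.6, from 380.8 and 134.8, and its summit 249 bp upstream. Both windows are printed because the 2 strongest members differed widely in base composition, at 52.3% and 23.8% GC. Capitals mark GAGAGA or CGCGC, of which Y50D4C.5 has none.
T13C5.6 (chrX:6207777-6207927, minus strand): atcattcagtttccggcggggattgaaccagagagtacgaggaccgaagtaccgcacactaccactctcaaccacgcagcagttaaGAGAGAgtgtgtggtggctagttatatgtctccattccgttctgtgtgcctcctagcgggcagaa
Y50D4C.5 (chrV:1003918-1004068, minus strand): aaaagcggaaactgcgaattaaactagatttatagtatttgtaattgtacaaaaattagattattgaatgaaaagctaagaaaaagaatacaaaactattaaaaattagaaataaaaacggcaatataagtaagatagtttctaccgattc

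The members of next highest signal were W03C9.5 (478.4), W03H9.2 (435.4), which RefSeq describes as an RNA recognition motif protein, and K05C4.2 (401.8), a jagunal homolog. The K05C4.2 summit was the only one of the 15 strongest to lie downstream of the gene start, by 326 bp. Then came lem-2 (395.4), a protein of the inner nuclear membrane, and Y32B12B.4 (393.3), described by RefSeq as a Lin-15A/B-like domain protein. Y32B12B.4 was followed by atad-3 (380.7), a mitochondrial ATPase, and Y62F5A.12 (376.0). The remaining ones of the 15 strongest were bag-1 (344.3), a co-chaperone of Hsp70, rae-1 (331.5), an mRNA export factor, and F39G3.3 (328.3). They also included rps-24 (328.3), a protein of the small ribosomal subunit, C46F11.4 (324.1), an RNA helicase, and exos-8 (323.5), a subunit of the RNA exosome. All 15 ranked between 19 and 92 in replicate 1 and between 22 and 114 in replicate 2.

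Some of these strongest members shared a repeated stretch. All 8-base sequences in at least 4 of the 15 strongest windows were ranked by how few weaker members held them, and AGATCCCC and CCCACGAA tied for the first place, with 3 weaker members each. CCCACGAA was in 6 final members and AGATCCCC, described here, in 5. This search was also made after the data were seen. AGATCCCC was in 4 of the 15 strongest members, in 5 of all 208 final members (2.40%, 1.03 to 5.50%) and in 3 of 2415 weaker ones (0.124%, 0.0423 to 0.365%). The fifth final member was ttll-4, a homolog of tubulin glutamylases, with a signal of 215.8. The share was 0.100% in the windows upstream of all gene starts. In divergent regions, which the search did not use, it was in 4 of 154 final and 1 of 589 weaker ones. The Y32B12B.4 window held 5 copies, rps-24 and ttll-4 held 2 and atad-3 and Y62F5A.12 held 1. Capitals mark the copies in 3 of these windows. Reads from repeats of this kind can map to several places, and the sources used here name neither the aligner nor its filters.
Y32B12B.4 (chrV:16553097-16553247, plus strand): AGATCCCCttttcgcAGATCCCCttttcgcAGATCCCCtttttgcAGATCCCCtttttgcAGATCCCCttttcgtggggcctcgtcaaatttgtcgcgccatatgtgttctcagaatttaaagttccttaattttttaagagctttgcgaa
atad-3 (chrII:10248486-10248636, plus strand): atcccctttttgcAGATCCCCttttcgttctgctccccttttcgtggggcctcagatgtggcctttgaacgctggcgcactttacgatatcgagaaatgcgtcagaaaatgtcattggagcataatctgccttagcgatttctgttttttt
rps-24 (chrIV:385470-385620, plus strand): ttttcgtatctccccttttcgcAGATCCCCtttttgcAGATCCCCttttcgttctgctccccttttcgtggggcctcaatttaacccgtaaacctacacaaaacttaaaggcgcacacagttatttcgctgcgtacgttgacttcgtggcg

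Ranks in the 2 replicates differed most at 3 final members. The fbxl-2 promoter, of a gene for an F-box protein, ranked 427 in replicate 1 with a signal of 90.1 and 6513 in replicate 2 with 18.6. At mppb-1, a subunit of the mitochondrial processing peptidase, the ranks were 382 and 4692. For rpac-19, a subunit shared by RNA polymerases I and III, they were 341 and 2910. All 3 stood higher in replicate 1. In the opposite direction cox-5B, a subunit of cytochrome oxidase, ranked 2265 in replicate 1 and 371 in replicate 2.

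At the edge of the final list the members on either side differed little in signal. The lowest final members were nuo-2 (98.3), a subunit of respiratory complex I, and icd-1 (98.4), a subunit of the nascent polypeptide-associated complex. The highest weaker members were pafo-1 (97.98), of the PAF1 transcription elongation complex, and his-37 (97.9), a histone H4 gene. They were followed by rnh-2 (97.8), a subunit of RNase H2, and unc-23 (97.2), a BAG domain protein. Histone genes have near-identical copies, and the sources used here do not say how reads shared between them were placed.

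Final summits lay upstream of the annotated start more often than weaker ones. They did so in 191 of 208 final members (91.8%, 87.3 to 94.8%) and in 1480 of 2415 weaker members (61.3%). The median final summit was 188 bp upstream, against a median of 90 bp upstream in weaker members. Between 100 and 300 bp upstream lay 57.7% of final and 29.5% of weaker summits. The share of members on the final list was highest in the bins from 200 to 100 bp upstream (15.2%) and from 300 to 200 bp upstream (13.5%). It was 7.76% in the last 100 bp before the start and 2.76% in the first 100 bp after it. In the 4 bins further downstream it ran between 0.885% and 2.91%.

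**Figure D2:**
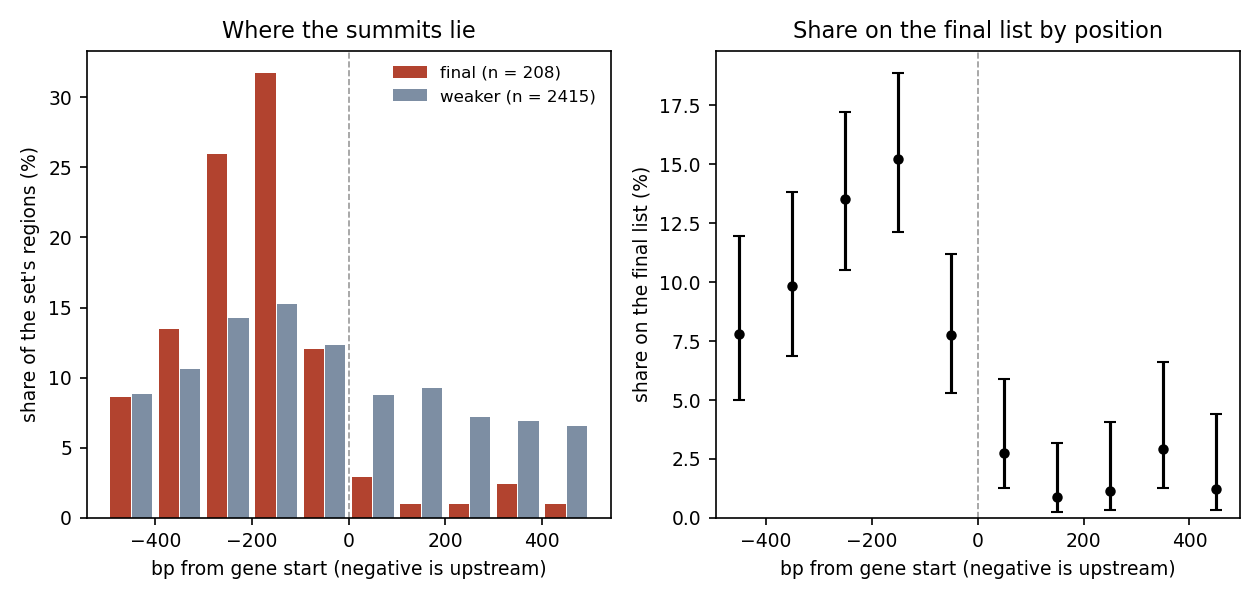
Summit positions relative to the annotated start of the nearest protein-coding gene, in bins of 100 bp. The left panel gives the share of final (n = 208) and weaker (n = 2415) members in each bin, and the right panel the share of each bin's members on the final list with 95% Wilson intervals. Upstream bins reach 15.2% and every downstream bin is at or below 2.91%.

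Most final summits fell between protein-coding genes, in 84.6% of final members (79.1 to 88.9%) and 52.9% of weaker ones (50.9 to 54.9%). Coding sequence held 1 final summit, at Y18D10A.4 (0.481%, 0.0849 to 2.67%), and 428 weaker ones (17.7%, 16.3 to 19.3%). In 5′ UTRs lay 11 final (5.29%) and 170 weaker summits (7.04%), and the intervals overlapped. Introns or 3′ UTRs held 20 final (9.62%) and 539 weaker ones (22.3%). Of the 17 final summits at or downstream of the start, K05C4.2 had the highest signal and tba-7, an alpha-tubulin, the next (205.7).

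Some promoter summits fell inside genes annotated as ncRNA, a comparison made after the data were seen. This held for 14 of 208 final members (6.73%, 4.05 to 10.98%) and 84 of 2415 weaker ones (3.48%, 2.82 to 4.29%), and the intervals overlapped. The strongest of the 14 was T13C5.6, whose summit lay in C14F11.14, an ncRNA of 147 bp on the opposite strand. Other final members of this kind were tba-7, mrck-1, a kinase homologous to MRCK, syd-2, a presynaptic liprin, and lin-14, a heterochronic regulator. Among the strongest peaks of replicate 1 were 13 of the 98 members with such a summit (13.3%, 7.92 to 21.4%) and 7.80% of the other members (6.82 to 8.91%). In replicate 2 the shares were 9.18% (4.91 to 16.5%) and 7.05%. The intervals overlapped in both replicates. ChIP signal has no strand, so an ncRNA and the protein-coding promoter it lies in cannot be told apart.

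The genes of final and weaker members were alike in length and number of exons. Their median length was 2861 bp for final and 2608 bp for weaker members, and the median number of exons was 6 in both. An annotated 5′ UTR was present at 93.8% of final (89.6 to 96.3%) and 86.2% of weaker members (84.7 to 87.5%). The gene carried a 3- or 4-letter name at 72.6% of final (66.2 to 78.2%) and 60.8% of weaker members (58.8 to 62.7%). A gene on the same strand ended within 500 bp upstream of the start at 26.4% of final (20.9 to 32.8%) and 24.2% of weaker members (22.6 to 26.0%). An opposed noncoding start, which the rule did not consider, lay within 1000 bp upstream at 7.69% of final and 9.36% of weaker members. The lgg-2 gene, of the LC3 family of autophagy proteins, was the only one with 2 final members.

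Windows at final summits were richer in G and C. Their GC content was 44.7 ± 8.07% (SD over 208 windows), against 40.2 ± 9.59% over 2415 weaker windows, so that the spreads overlapped. It was 34.9 ± 7.55% in the windows 500 bp upstream of the final summits and 39.3 ± 7.14% in those 500 bp downstream. The windows upstream of all gene starts had 34.3 ± 7.18%.

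Of 14 sequences chosen with earlier results of these data known and searched on both strands, CGCGC differed most between final and weaker members. It was in 43.3% of final windows (36.7 to 50.1%), against 17.8% of weaker ones (16.4 to 19.4%). In the flanks of the final summits it was in 7.21% upstream and 6.73% downstream, and upstream of all gene starts in 8.56%. In divergent regions it was in 46.8% of final and 26.8% of weaker windows. Among members with CGCGC, 90 of 521 were on the final list (17.3%, 14.3 to 20.8%), against 118 of 2102 without it (5.61%, 4.71 to 6.68%). Final and weaker summits also differed in position. Among members with an upstream summit alone, the shares on the final list were 20.2% with CGCGC and 8.53% without it. CGCGC itself raises GC content, so members were also split into 4 bands of GC. From the lowest to the highest band, the share on the final list was 7.5%, 15.2%, 23.5% and 15.1% with CGCGC and 2.01%, 5.25%, 6.50% and 10.5% without it. The intervals did not overlap in the 2 middle bands and did in the lowest and the highest. By replicate, 16.9% of members with CGCGC and 5.80% of those without were among the strongest peaks of replicate 1. The shares were 16.9% and 4.71% in replicate 2.

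An open search over 2080 6-base sequences, made after the data were seen, put GGCCTA first, which TGGCCTAGAA contains. It was in 42 final windows (20.2%, 15.3 to 26.2%) and 4.10% of weaker ones (3.38 to 4.97%). The flanks had 1.44% upstream and 0.962% downstream, and the windows upstream of all gene starts 2.80%. In divergent regions, not used in that search, 18.2% of final and 6.62% of weaker windows held it. In bins of 30 bp around the summit, CGCGC reached 17.8% of final members and 5.38% of weaker ones, and GGCCTA 8.17% and 1.201%.

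**Figure D3:**
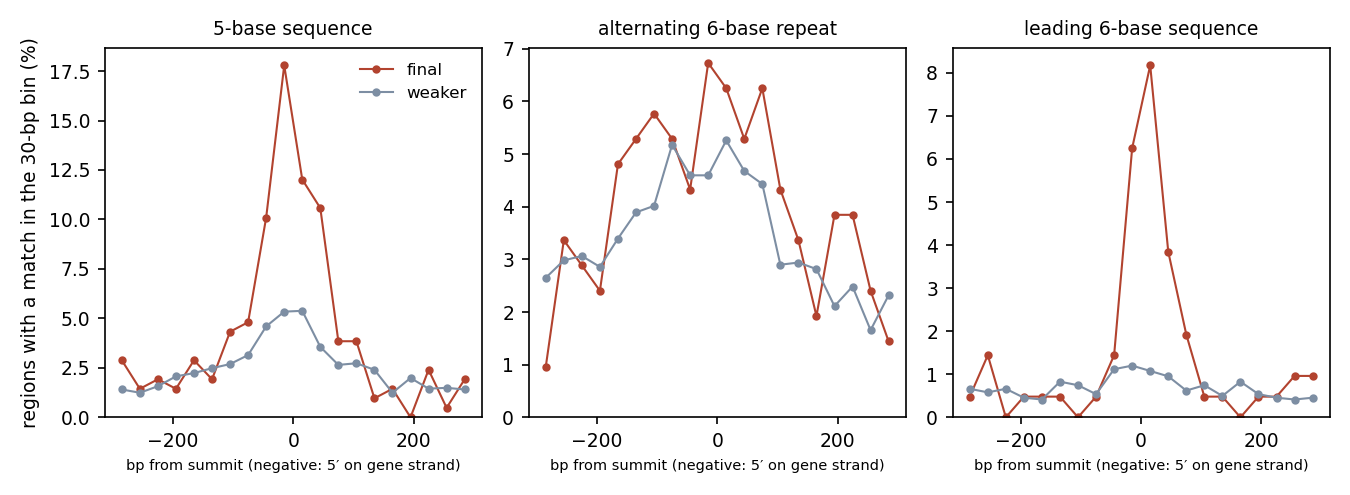
Share of final (n = 208) and weaker (n = 2415) members with a match in each 30-bp bin around the summit, for CGCGC (left, called the 5-base sequence), GAGAGA (middle, the alternating repeat) and GGCCTA (right, the leading 6-base sequence). The x axis runs 5′ to 3′ on the strand of the gene. CGCGC peaks at 17.8% and GGCCTA at 8.17% of final members next to the summit, while GAGAGA stays at or below 6.73%.

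GAGAGA, the element read by GAGA-type factors in flies and a frequent sequence in worm promoters, was in 47 final windows (22.6%, 17.4 to 28.7%). Weaker windows held it in 19.2% of cases (17.7 to 20.8%), so the intervals overlapped. The flanks of the final summits had 10.6% upstream and 7.21% downstream. Ordered by signal, 4 groups of 52 final members held 2, 10, 21 and 14 windows with GAGAGA, the strongest group first. CGCGC was in 22, 28, 18 and 22 windows of these groups, and GGCCTA in 8, 20, 7 and 7.

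The receptor half-site AAGTCA was scarce at the summits. It was in 4 final windows (1.92%, 0.7503 to 4.84%) and 4.72% of weaker ones (3.94 to 5.64%), and the intervals overlapped. The flanks had 9.62% upstream (6.31 to 14.4%) and 5.29% downstream, and the windows upstream of all gene starts had 6.71%. The upstream flank was above the summit windows beyond their intervals. Mean GC was 44.7% at the final summits and 34.9% in that flank, and its part in this difference was not tested. The half-site AGGTCA was in 2.88% of final and 3.602% of weaker windows, and AAAGTCA in 0.481% and 2.03%. All 4 final sites are shown, with AAGTCA or its reverse complement in capitals, at rps-24, the metalloprotease gene adm-4, the RNA polymerase I subunit gene rpoa-12 and C03A3.1. The match says only that these letters lie there.
rps-24 (chrIV:385591-385631, plus strand): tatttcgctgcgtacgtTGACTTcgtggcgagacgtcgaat
adm-4 (chrX:7798558-7798598, minus strand): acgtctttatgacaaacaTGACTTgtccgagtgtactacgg
rpoa-12 (chrV:14423416-14423456, minus strand): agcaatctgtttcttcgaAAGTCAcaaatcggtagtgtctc
C03A3.1 (chrX:11257243-11257283, plus strand): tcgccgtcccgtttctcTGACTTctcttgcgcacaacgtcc

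Several sequences rich in adenine and thymine had lower shares at final summits. TGATAA, which GATA factors bind, was in 3.37% of final (1.64 to 6.78%) and 9.65% of weaker windows (8.53 to 10.9%). TATAAA, the core of the TATA box, was in 7.69% of final (4.79 to 12.1%) and 17.3% of weaker windows (15.8 to 18.8%). TAATTA, a homeodomain core site, was in 4.33% and 9.23%, and TTTTTTTT in 8.65% and 14.2%. TTTTCAG, as found at worm splice acceptors, was in 8.17% and 11.3%. The intervals of final and weaker windows did not overlap for the GATA site, the TATA box and the homeodomain site. They did overlap for the run of thymines and the splice acceptor sequence. In divergent regions TGATAA was in 5.84% of final and 8.998% of weaker windows. TATAAA was in 12.3% and 17.1% there, and TAATTA in 6.49% and 6.79%. The intervals overlapped for each of these sites in divergent regions. Mean GC was 44.7% at final and 40.2% at weaker member summits, and its part in these differences was not tested. Among sequences rich in guanine and cytosine, GGGCGG was in 11.1% of final (7.48 to 16.05%) and 7.49% of weaker windows (6.51 to 8.61%), and GCGCGAAA in 3.37% and 0.994%. The intervals overlapped for the first of these and not for the second, which holds the 5-base sequence above on its other strand. CACGTG and TGACGTCA each stayed under 3% in both sets, at 2.88% and 2.82% and at 0.962% and 0.704%.

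**Figure D4:**
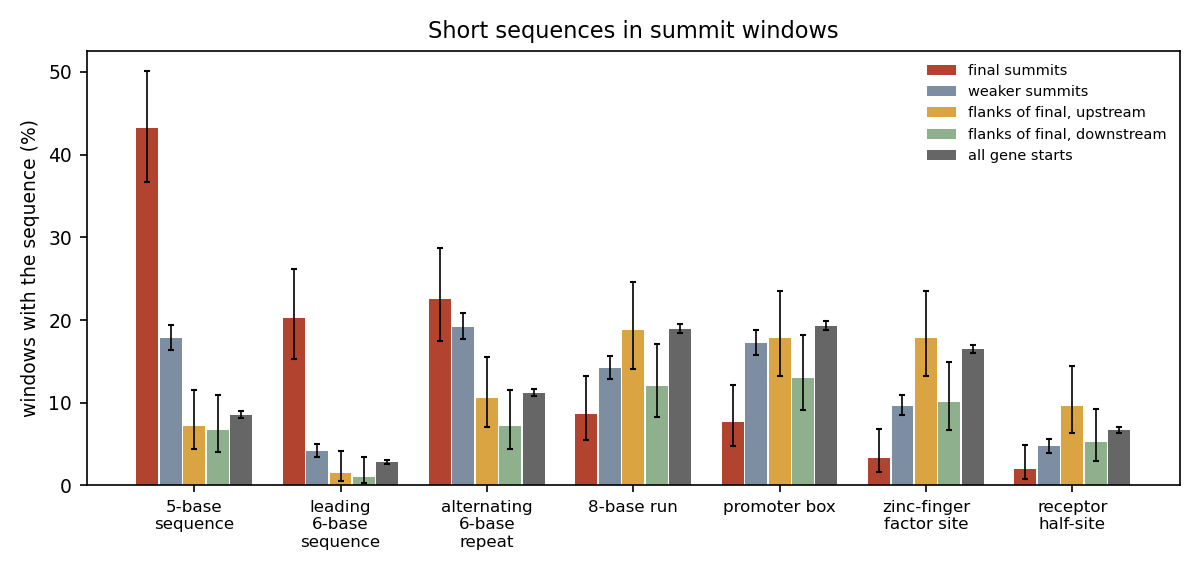
Share of windows with each of 7 short sequences, with 95% Wilson intervals, at final summits, weaker summits, the flanks of final summits and upstream of all gene starts. The 5-base sequence is CGCGC and the leading 6-base one is GGCCTA, while the alternating repeat is GAGAGA and the 8-base run is thymines. The promoter box is TATAAA, the zinc-finger factor site is TGATAA and the receptor half-site is AAGTCA. Final summits lead for CGCGC (43.3%) and GGCCTA (20.2%), while their interval for GAGAGA (22.6%) overlaps that of weaker summits. They are lowest for TGATAA (3.37%), AAGTCA (1.92%), TATAAA (7.69%) and the run of thymines (8.65%).

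Among the members, promoters of genes for core cell processes were often on the final list. Over 13 such lists, chosen by gene name with earlier results of these data known, 31 of 164 regions were final (18.9%, 13.6 to 25.6%), against 7.93% of all members. Regions at genes in no list were final in 171 of 2226 cases (7.68%, 6.65 to 8.86%). Over 4 neuronal lists the count was 2 of 68 (2.94%, 0.810 to 10.1%), over 4 lists of transcription factors 1 of 74 (1.35%, 0.239 to 7.27%) and over 9 tissue and family lists 3 of 95 (3.16%, 1.08 to 8.88%). Only the interval of the core-process lists lay wholly above the share over all members, and that of the transcription factors wholly below it.

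Protein synthesis genes gave several of these. Final regions stood at 4 of 25 regions of cytosolic ribosomal proteins, led by rps-24, rpl-3 (252.4) and rps-28 (190.9). The rps-24 signal was 194.0 in replicate 1 and 135.7 in replicate 2, that of rpl-3 171.3 and 80.7, and that of rps-28 145.6 and 40.3. The last ranked 158 in replicate 1 and 713 in replicate 2, so that the replicates differed more on it than on rps-24, at 92 and 46. Aminoacyl-tRNA synthetases, which charge tRNAs, had 3 of 6, at kars-1 (236.5), mars-1 (186.8) and yars-2 (113.8). The kars-1 signal was 157.0 in replicate 1 and 80.5 in replicate 2. Translation factors had 3 of 10, at the initiation factor genes eif-3.C (184.8), eif-3.B (170.1) and ife-4 (106.8). Mitochondrial ribosomal proteins had 1 of 10, at mrps-35 (173.6), whose window holds AGGAGTACAC.

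Genes of chromatin and transcription followed. Chromatin factors had 5 of 18 final, among them swsn-3 (210.2), of the SWI/SNF complex, and the histone methyltransferase genes set-2 (162.1) and set-25 (113.8). The transcription machinery had 2 of 16, at rpb-11 (193.4) and rpoa-12 (106.8), both RNA polymerase subunits. Replication and cell cycle genes had 2 of 16, at mcm-10 (312.8), a replication factor, and cdc-73 (113.3). That list goes by gene name, and cdc-73 is of the PAF1 transcription elongation complex. The mcm-10 region, the strongest of all core-process regions after rps-24, had 205.0 in replicate 1 and 105.8 in replicate 2. Splicing had 1 of 7, at ddx-23 (102.6).

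Protein turnover, folding and energy genes made up the rest. Chaperones had 3 of 10 final, at hsp-3 (147.8) and hsp-1 (116.2), both of the Hsp70 family, and dnj-9 (98.6). The respiratory chain had 3 of 8, at cyc-1 (105.0), cox-5B (99.8) and nuo-2. The proteasome had 1 of 5, at pbs-3 (146.4), vesicle traffic 2 of 27, at sec-61.G (138.4) and sec-3 (108.4), and the vacuolar ATPase 1 of 7, at vha-9 (101.1). The intervals of aminoacyl-tRNA synthetases, translation factors, chaperones, the respiratory chain and chromatin factors lay above 7.93%, and those of the other 8 core-process lists included it. Of all divergent regions 20.7% were final. There the synthetases had 1 of 3 final, translation factors 1 of 11, chaperones 4 of 11, the respiratory chain 0 of 9 and chromatin factors 2 of 6. Cytosolic ribosomal proteins, with the most divergent regions of these lists, had 3 of 15. The high share of core-process genes is thus stated for the members only.

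**Figure D5:**
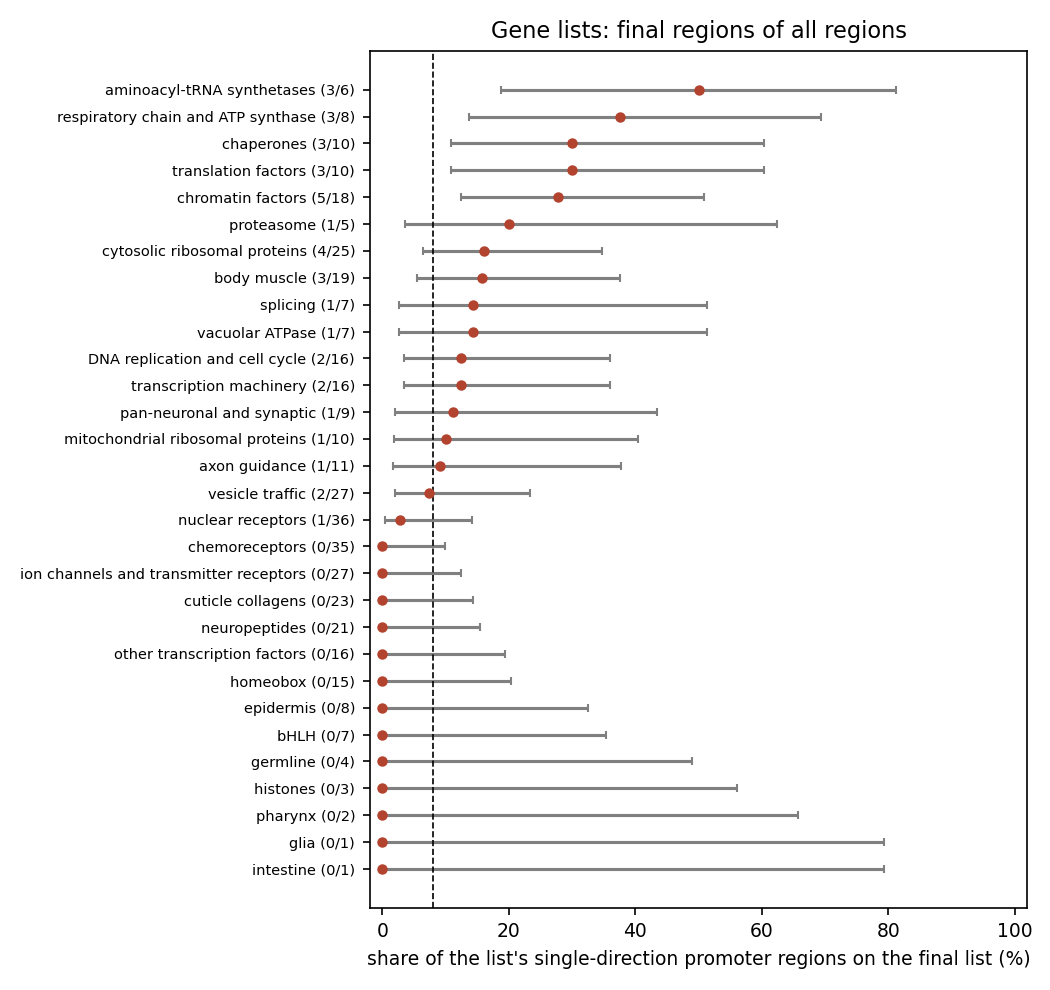
Share of each list's single-direction promoter regions on the final list (x axis, %), with 95% Wilson intervals. Final and total regions are in brackets, and the dashed line is the share over all members (7.93%). Lists of core cell processes lie mostly to the right of the line, and lists with 0 final regions, such as the 35 chemoreceptor regions, sit at 0.

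The final members of the neuronal lists were syd-2 (134.9) and unc-76 (118.0), a gene for axon outgrowth. The first was 1 of 9 regions of pan-neuronal and synaptic genes (11.1%, 1.99 to 43.5%). The second was 1 of 11 regions of axon guidance genes (9.09%, 1.62 to 37.7%). The intervals of these 2 lists included 7.93%. The syd-2 signal was 80.3 in replicate 1 and 55.6 in replicate 2, and that of unc-76 was 74.0 and 50.6. Both lay among the 830 strongest peaks of each replicate. Neuropeptide genes had 0 of 21, where up to 14.3% is allowed, with nlp-17 highest at 72.4, and ion channels and transmitter receptors 0 of 27, where up to 11.1% is allowed, with the acetylcholine receptor gene lev-1 highest at 82.8. Among nuclear receptors, the family of FAX-1, 1 of 36 regions was final, at nhr-1 (114.8), whose peaks ranked 573 in replicate 1 and 1255 in replicate 2. Homeobox genes had 0 of 15, with unc-42, a regulator of neuron identity, highest at 82.6. The bHLH genes had 0 of 7, with hlh-11 at 90.2, and other transcription factors 0 of 16, with pha-4 at 61.6. The limits at these counts were 20%, 42.9% and 18.75%, so none of these lists of 0 could be told from the 7.93% over all members. The fax-1 gene itself had no candidate region within 5000 bp.

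Of the 19 regions of the body muscle list 3 were final (15.8%, 5.52 to 37.6%, which includes 7.93%), at unc-112 (117.1), an attachment protein of the kindlin family, unc-54 (103.7), a myosin heavy chain, and unc-60 (103.6), which encodes cofilins. Chemoreceptors had 0 of 35, for which a share as high as 8.57% is allowed, and cuticle collagens had 0 of 23. The highest weaker regions of these lists were srx-28 (51.1) and col-44 (61.7). The 6 other tissue and family lists held 0 final regions, of 8 for the epidermis, 4 for the germline, 3 for histones, 2 for the pharynx and 1 each for the intestine and glia. The limit at a count of 0 was above 7.93% for each of them and for the chemoreceptors and collagens. Their highest were his-37 (97.9), pha-4 for the pharynx, ajm-1 (59.5) for the epidermis, ifd-2 (38.3) for the intestine, nos-1 (40.3) for the germline and lit-1 (35.3) for glia.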

How the data were processed

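Peak lists of anti-GFP ChIP-seq were used for 2 biological replicates of FAX-1::GFP late embryos: 1 candidate list per replicate, 1 for the pooled replicates and the final list. The deposited signal value of each peak was made by the authors, per the place of the column in the file format. Not given in the sources used here are the peak caller, aligner, reproducibility threshold and read depth. Control and reads were not analysed here. Lists on ce11 were used, and the chromosome lengths of the WBcel235 reference hold every peak. Genes came from Ensembl release 115, products from RefSeq.

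Overlapping rows were merged (at least 1 bp) and represented by the row of highest signal. A member was on the final list when it overlapped it by at least 1 bp. The 13 mitochondrial regions were left out. Regions are not replicates, so shares are given with 95% Wilson intervals and no p-values. The replicates are separate biological samples of 1 group, and each was also used alone. The members and the 30 gene lists were chosen with earlier results of these data known, and name patterns of some lists were corrected after a first look at the matches. The named genes are fax-1, the 15 strongest final members, the 2 lowest final and 4 highest weaker members, the 3 with the most discordant ranks, and up to 3 per list, or the highest weaker member of a list with none. Other genes, such as those at shown sequences, were chosen for naming once values were known. The 6-, 8- and 10-base searches and the ncRNA comparison were added after the data were seen. Merging, classes, overlaps and sequence counts were tested on simulated data. Tools were Python 3.11.15, pandas 2.3.3, NumPy 2.4.6 and SciPy 1.17.1.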

Additional observations from a re-analysis of the deposited data

How the results depend on the processing

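Of 66 alternatives over 7 results, 55 moved the value by less than the limits set for them. The number of final members was 124 with a start within 250 bp, against 208. The share of members on the final list, 7.93% in the main setting, was 6.13% with starts within 1000 bp, 9.33% with opposed starts searched over 500 bp, and 9.04% with summits near tRNA, snoRNA and snRNA genes kept. From the strongest peaks of 1 replicate alone it ran from 5.88% without replicate 1 to 7.30% without replicate 2. GAGAGA stood in 11.5% of the stronger 50% of final members and in 16.3% with 50 bp on each side of the summit, against 22.6%. Mean GC was 42.5% in the stronger 50%, 47.7% with 50 bp on each side and 42.7% with 100 bp, against 44.7%. With 0.5 times as many strongest peaks of each replicate, 32.2% of final members were among those of both, against 67.3%. Without either replicate, the share of summits upstream of the start ran from 91.1% to 92.9%, the number on the list from 192 to 212 and AAGTCA from 2.36% to 2.60%. The cause of these shifts was not tested. No paired analysis was possible because the study held 1 group. The sources used here give no read depth, so what it limits cannot be stated.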

Other observations

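Final members lay on every nuclear chromosome. Chromosome III had the highest share of members on the final list, 42 of 412 (10.2%), and X the lowest, 30 of 474 (6.33%), and their intervals overlapped. Bases marked as repeats made up a mean of 27.4% of final and 27.9% of weaker summit windows.

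The nearest neighbouring gene upstream lay on the opposite strand at 39.9% of final members (33.5 to 46.7%) and 31.0% of weaker ones (29.2 to 32.9%). The nearest opposed protein-coding start was a median of 5913 bp upstream at final and 7135 bp at weaker members.

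Some weaker members were strong in 1 replicate. Among the 830 strongest peaks were 17 weaker members in replicate 1 and 35 in replicate 2, and 1 stood among both. The unc-42 region was one of the 35, with 34.7 in replicate 1, rank 3500, and 46.7 in replicate 2, rank 535.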
